A study of Mus musculus with 6 samples.

Results

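The mRNAs of 10 genes of the Nrf2 antioxidant and glutathione system were followed in bone marrow-derived dendritic cells (BMDCs) with and without Nfkb2. The set comprises Nfe2l2, which encodes Nrf2, its repressor Keap1, and the antioxidant genes Nqo1, Gclc, Gclm, Gsr, Gpx1, Txnrd1, Srxn1 and Slc7a11. Its members were listed by gene name for their place in the pathway, with earlier results of these data known, and the listing itself uses no measured value. Each symbol was matched to 1 Ensembl ID among the 56748 in the count files. All 10 passed the filter of 50 counts over the 6 libraries and were tested among 21849 named genes.

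RNA-seq was performed on unstimulated cells from WT mice of the C57BL/6 strain and from mice that lack Nfkb2 in every cell (Nfkb2-/-), with 3 libraries per genotype. Ages of the animals were not given in the sources used here. Bone marrow cells of both genotypes were cultured for 9 days, of which 5 days were with GM-CSF alone at 20 ng/mL and 4 days with GM-CSF and IL-4 at 10 ng/mL, and the non-adherent cells were taken. Because the deletion is in the whole animal, an effect in the cultured cells and an effect in the marrow from which they came cannot be told apart. The study describes the 3 libraries of a genotype as independent biological replicates. Neither it nor the labels say whether each came from a separate animal, so that p-values measure the spread between these libraries. Total counts were 43126299, 31622131 and 33211096 in WT replicates 1 to 3, and 29863927, 31622146 and 55623068 in Nfkb2-/- replicates 1 to 3. Values below are in CPM, counts scaled to a common library size after TMM normalization, a unit in which 1 count was worth between 0.0187 and 0.0344.

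Nrf2 is a transcription factor that is held at a low level by Keap1, an adaptor that presents it to a Cul3 ubiquitin ligase. Oxidants and electrophiles modify cysteines of Keap1, and Nrf2 then accumulates, pairs with a small Maf protein and binds antioxidant response elements near genes for glutathione synthesis, thioredoxin recycling and quinone reduction. In dendritic cells, cystine import and the glutathione made from it are known to influence redox state, differentiation and antigen presentation.

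The element to which Nrf2 and small Maf proteins bind has the core letters TGACNNNGC, where N is any base. These letters were searched on both strands of the RefSeq promoter windows of assembly GRCm38.p6, each reaching from 250 bases before to 50 bases after an annotated start, with 32851 windows for 27025 genes because some genes have several starts. Of the 10 genes, 8 had a window, and 4 of these held the letters: Nfe2l2, Srxn1, Gclm and Txnrd1. Keap1, Slc7a11, Gpx1 and Nqo1 held none in the window, and Gclc and Gsr were not in the table. Among all genes in it, 3781 (14.0%) held a match. The 4 matches are shown with 10 bases on each side, 5′ to 3′ on the strand of the gene, because these are the places where the windows hold the letters that Nrf2 is known to bind. Capitals mark the match, which on the other strand reads as GCNNNGTCA.
Nfe2l2: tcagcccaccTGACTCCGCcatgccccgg
Srxn1: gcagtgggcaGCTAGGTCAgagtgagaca
Gclm: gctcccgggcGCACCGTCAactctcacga
Txnrd1: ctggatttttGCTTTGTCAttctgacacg
They lie at chr2:75704885-75704913 (minus strand), chr2:152105542-152105570, chr3:122245413-122245441 and chr10:82859104-82859132 (plus strand), respectively. Txnrd1 has 3 windows, and its match lies in the second of them, at a start inside the gene as GENCODE draws it, whereas the window at the outermost start held none. The Srxn1 window also held the AP-1 letters TGACTCA or TGAGTCA at 2 places that did not overlap the match, and 5.95% of all genes in the table held one or the other. A match of letters is a description of the window and does not show that a factor was bound, and windows without a match say nothing about elements farther away.

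Nfkb2 itself, on chromosome 19, was read first as a check of the genotype. It was counted 9075, 4998 and 10314 times in the WT libraries, and 1518, 981 and 1745 times in the Nfkb2-/- libraries. The mRNA fell from 241 ± 103 CPM to 36.6 ± 7.13 CPM (SD, n = 3). Its log2 fold change was -2.72 (SE 0.33), with an adjusted p of 0.0307 by the quasi-likelihood F test of edgeR and the Benjamini-Hochberg method, as for each adjusted p of edgeR below. The labels of all 6 libraries held in this respect.

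Differences between libraries of 1 genotype bear on what follows. WT replicate 3 was the lowest of the 6 libraries for each of the 11 macrophage markers, whose summed level was 1085, 1263 and 189.6 CPM in the WT and 727, 782 and 933 CPM in the Nfkb2-/- replicates. Mrc1, the mannose receptor and the most abundant of them, stood at 224, 262 and 36.0 CPM in WT and at 108, 181 and 189 CPM in Nfkb2-/- BMDCs. No macrophage marker was called, and none was at 0 in any library. Nfkb2-/- replicate 1 had counts on 47952 Ensembl IDs against 27692 to 33841 in the others, and its log2 CPM correlated less with theirs (Pearson's r across genes from 0.904 to 0.928, against 0.985 between Nfkb2-/- replicates 2 and 3). Genes are not independent replicates, and this is a description of the libraries.

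Markers of dendritic cells were present in every library. Counts for this and the following lists are to be read against the shares over all genes tested, of which 17.1% had an unadjusted p under 0.05 in edgeR (9.03% higher and 8.04% lower in Nfkb2-/-), 24.7% had separate genotypes, and DESeq2 called 8.65%. Their summed level over 12 genes was 9455, 7096 and 13417 CPM in WT and 9432, 9186 and 10227 CPM in Nfkb2-/- BMDCs, led by Cd74, the invariant chain of MHC class II. Itgax, which encodes CD11c, rose from 160.4, 277 and 123 CPM to 745, 769 and 716 CPM (log2 fold change 1.99, adjusted p = 0.0414, edgeR) and was the 1 marker of this list that was called. The list as a whole went both ways, with 6 estimates higher and 6 lower and a median of -0.03. At an unadjusted p under 0.05 (9.03% of all genes higher, 8.04% lower) there were 3 higher, with Itgax, Cd86 and Ciita, and 3 lower, which were Zbtb46 (log2 fold change -0.54), Ccr7 (-0.97) and Cd83 (-1.12), and of the latter the genotypes were separate for Zbtb46 and Cd83. Of the other cell types, the 10 neutrophil markers tested summed to 286, 439.7 and 109 CPM in WT and to 152, 166 and 189 CPM in Nfkb2-/- BMDCs. Estimates were lower in Nfkb2-/- for 9 of these 10 (median log2 fold change -1.06), and S100a8, the most abundant, was the exception at 0.37. None was called by edgeR and 3 by DESeq2 (8.65% of all genes), 4 had an unadjusted p under 0.05, all lower (8.04% of all genes), which were Ngp, Ltf, Retnlg and Csf3r, and the genotypes overlapped in all 10. The 7 mast cell and basophil markers, led by Kit, summed to between 46.6 and 58.2 CPM and went both ways, with 3 higher and 4 lower. Their median log2 fold change was -0.92, and the genotypes were separate in 2 higher and 3 lower (12.7% and 12.0% of all genes). Cpa3, a mast cell protease, was called and lower in Nfkb2-/- (10.8, 6.31 and 6.85 CPM in WT, 1.86, 2.34 and 2.49 CPM in Nfkb2-/-), whereas Gata2 (log2 fold change 1.47, adjusted p = 0.119, edgeR) and Hdc (1.72, adjusted p = 0.341) were higher and separate but not called. The 7 T and B cell markers summed to between 2.25 and 11.3 CPM, highest in Nfkb2-/- replicate 1. The 6 stromal markers, led by Col1a2, summed to 55.5, 18.3 and 1.34 CPM in WT and to 28.7, 18.9 and 8.08 CPM in Nfkb2-/- BMDCs, and WT replicate 3 was again lowest in each. Of the erythroid markers 1 of 7 was tested, Alas2, at 3.34 to 5.37 CPM. The part of these differences in the values of the Nrf2 genes was not tested. In bulk RNA, fewer cells of a type and less RNA per cell cannot be told apart.

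None of the 10 genes was called differentially expressed between WT and Nfkb2-/- BMDCs, which does not show that they were unchanged. A gene was called when its adjusted p was under 0.05 and its fold change over 1.2, which 248 of all genes tested met (1.14%). Of those, 99 (0.453% of all) were higher and 149 (0.682%) lower without Nfkb2. The split was even with DESeq2 (947 higher, 943 lower) and limma voom (245 and 243), and it turned without WT replicate 2 (681 and 567). The count of members called was also 0 with DESeq2, which called 8.65% of all genes, and with limma voom, which called 2.23%. At an unadjusted p under 0.05 the count was 0 of 10 by all 3 tools, where edgeR gave 17.1% over all genes. With total counts in place of TMM in edgeR the count was 2 of 10, beside 3559 of 21849 genes. These were Nfe2l2 (unadjusted p = 0.0444, adjusted p = 0.291) and Keap1 (unadjusted p = 0.0497, adjusted p = 0.306). Estimates were higher in Nfkb2-/- for 5 of the 10 and lower for the other 5, with a median log2 fold change of 0.03 beside 0.08 over all genes tested. The 3 WT libraries did not overlap the 3 Nfkb2-/- libraries in 2 of the 10, Keap1 and Nqo1, both higher without Nfkb2. Over all genes the libraries of the genotypes were separate in 24.7%, and separate and higher without Nfkb2 in 12.7%, so that the share among the 10 was near the background.

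**Figure D1:**
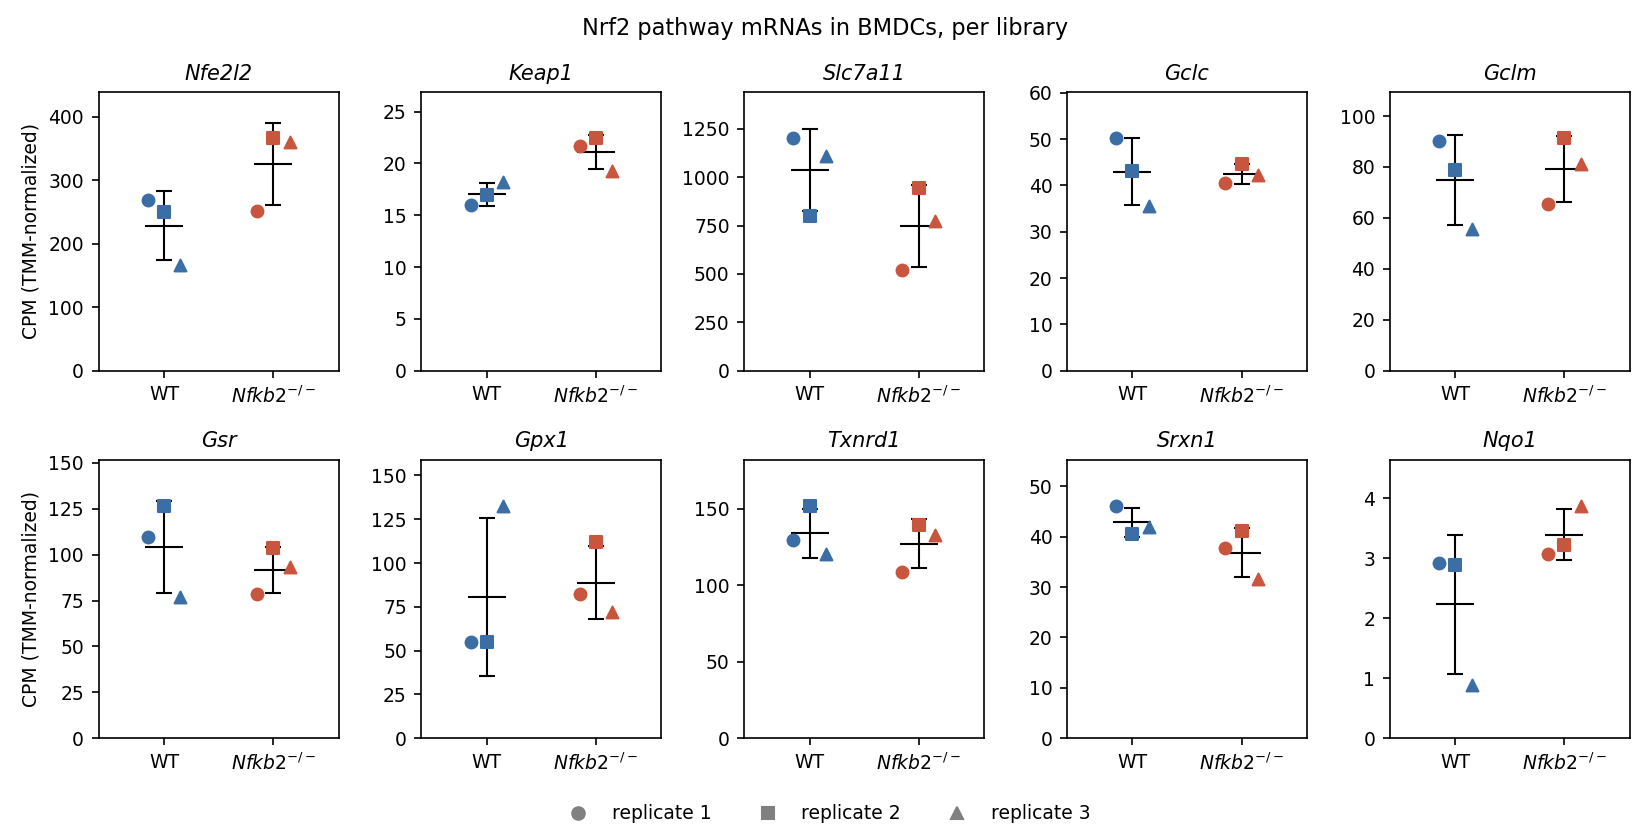
Level of each of the 10 mRNAs in CPM (vertical axes start at 0 and differ between panels) in the 3 WT and 3 Nfkb2-/- libraries; points are libraries with a symbol per replicate, and bars are mean ± SD. The genotypes overlap in every panel except Keap1 and Nqo1, and WT replicate 3 (triangle) is the lowest library for Nfe2l2, Gclc, Gclm, Gsr and Nqo1 and the highest for Gpx1.

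Nfe2l2 (ENSMUSG00000015839, chr2:75675513-75704641, minus strand) was at 269, 249 and 167 CPM in WT and at 251, 366 and 359.9 CPM in Nfkb2-/- BMDCs. Nfkb2-/- replicates 2 and 3 were above every WT library, whereas replicate 1 lay among them. The means were 228 ± 54.1 and 326 ± 64.5 CPM (SD, n = 3). Among the 10, this gene came nearest to the threshold by unadjusted p, with a log2 fold change of 0.51 (SE 0.24, 95% interval -0.05 to 1.07) and an adjusted p of 0.337 in edgeR. The interval allows anything from 0.97 to 2.10 times the WT level. Leaving out Nfkb2-/- replicate 1 gave 0.66 (unadjusted p = 0.0268, adjusted p = 0.184, edgeR) and leaving out WT replicate 3 gave 0.33 (adjusted p = 0.516). With both of these libraries left out, a choice made after seeing that they stand apart, the value was 0.47 (SE 0.10, adjusted p = 0.0585), which also missed the threshold.

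Keap1 (ENSMUSG00000003308, chr9:21229730-21239361, minus strand) was read at 16.0, 17.0 and 18.2 CPM in WT and at 21.7, 22.4 and 19.3 CPM in Nfkb2-/- BMDCs. Each Nfkb2-/- library was above each WT library, by a narrow margin between WT replicate 3 and Nfkb2-/- replicate 3. The log2 fold change was 0.31 (SE 0.15, 95% interval -0.04 to 0.66, adjusted p = 0.353, edgeR). Counts of Nfe2l2 for each count of Keap1 were 16.8, 14.7 and 9.17 in WT and 11.6, 16.3 and 18.7 in Nfkb2-/- BMDCs. The mean ratios of 13.6 ± 3.95 and 15.5 ± 3.62 differed by less than the SD of either genotype, and the lowest ratio was that of WT replicate 3.

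Slc7a11 (ENSMUSG00000027737, chr3:49892526-50443614, minus strand) encodes xCT, the cystine-importing chain of system xc-. It was measured at 1199.8, 797 and 1108 CPM in WT and at 522, 946 and 776 CPM in Nfkb2-/- BMDCs. The genotypes overlapped, since WT replicate 2 was below Nfkb2-/- replicate 2, and the lowest value was that of Nfkb2-/- replicate 1. The log2 fold change was -0.47 (SE 0.27, 95% interval -1.10 to 0.16, adjusted p = 0.430, edgeR), and it was -0.28 without Nfkb2-/- replicate 1 and -0.70 without Nfkb2-/- replicate 2. Slc7a11 supplied between 43.1% and 63.1% of the summed CPM of the 10 genes, and that sum was 1968, 1562 and 1758 CPM in WT and 1212, 1869 and 1612 CPM in Nfkb2-/- BMDCs. This share is not scaled for length, and Slc7a11 is the longest of the 10 at 13922 exonic bases. Slc3a2 encodes the heavy chain with which xCT forms the transporter. For each count of Slc3a2 there were 7.75, 6.71 and 6.39 counts of Slc7a11 in WT and 3.39, 6.83 and 6.18 in Nfkb2-/- BMDCs, so that Nfkb2-/- replicate 1 stood apart from the other 5 libraries.

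Glutathione is made from cysteine, glutamate and glycine, and the first and rate-limiting step belongs to glutamate-cysteine ligase, with Gclc as its catalytic and Gclm as its modifier subunit. Gclc (ENSMUSG00000032350, chr9:77754535-77794485) was at 50.1, 43.1 and 35.7 CPM in WT and at 40.6, 44.7 and 42.2 CPM in Nfkb2-/- BMDCs. All Nfkb2-/- values lay within the WT range, and the log2 fold change was -0.02 (SE 0.17, 95% interval -0.40 to 0.37, adjusted p = 0.971, edgeR), which bounds a difference to between 0.76 and 1.29 times the WT level. Gclm (ENSMUSG00000028124, chr3:122245557-122270732) gave 90.3, 79.0 and 55.5 CPM in WT and 65.4, 91.2 and 81.3 CPM in Nfkb2-/- BMDCs. Here too the genotypes overlapped, with WT replicate 3 lowest and the other WT libraries inside the Nfkb2-/- range (log2 fold change 0.08, SE 0.22, 95% interval -0.43 to 0.60, adjusted p = 0.883, edgeR). The counts of Gclc for each count of Gclm were 0.555, 0.546 and 0.642 in WT and 0.620, 0.490 and 0.519 in Nfkb2-/- BMDCs, a ratio whose highest value exceeded its lowest by a smaller factor than for either gene.

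Gsr (ENSMUSG00000031584, chr8:33652523-33698163) encodes glutathione reductase, which returns oxidized glutathione to its thiol form with NADPH. Its level was 109, 126 and 77.2 CPM in WT and 78.6, 103.6 and 93.0 CPM in Nfkb2-/- BMDCs. WT replicate 3 and Nfkb2-/- replicate 1 were the lowest and close to each other, and the genotypes overlapped (log2 fold change -0.19, SE 0.21, 95% interval -0.69 to 0.31, adjusted p = 0.692, edgeR). Leaving out WT replicate 2 gave -0.026, and leaving out WT replicate 3 gave -0.36. Gpx1 (ENSMUSG00000063856, chr9:108338903-108340343) encodes the selenium-containing peroxidase that spends glutathione on hydrogen peroxide. It stood at 54.8, 54.8 and 133 CPM in WT and at 82.6, 112 and 72.1 CPM in Nfkb2-/- BMDCs. WT replicate 3 was the highest of all 6 libraries, and the other 2 WT libraries were the lowest. The log2 fold change of 0.14 (SE 0.37, 95% interval -0.74 to 1.02, adjusted p = 0.882, edgeR) was not stable to the choice of libraries. Without WT replicate 3 it was 0.70 (SE 0.22, unadjusted p = 0.0159, adjusted p = 0.184), and it was negative without WT replicate 1 (-0.076), WT replicate 2 (-0.075) or Nfkb2-/- replicate 2 (-0.097).

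Txnrd1 (ENSMUSG00000020250, chr10:82833951-82897712) encodes cytosolic thioredoxin reductase, a selenoprotein that draws on NADPH. Levels of 129.6, 152 and 121 CPM in WT and of 109, 139.8 and 133 CPM in Nfkb2-/- BMDCs overlapped, with Nfkb2-/- replicate 1 lowest (log2 fold change -0.08, SE 0.16, 95% interval -0.46 to 0.31, adjusted p = 0.847, edgeR). Srxn1 (ENSMUSG00000032802, chr2:152105516-152111376) encodes sulfiredoxin, which restores overoxidized peroxiredoxins. It gave 46.1, 40.6 and 41.8 CPM in WT and 37.8, 41.2 and 31.6 CPM in Nfkb2-/- BMDCs. Nfkb2-/- replicate 2 was above WT replicate 2, and the other Nfkb2-/- libraries were below every WT library (log2 fold change -0.22, SE 0.16, 95% interval -0.58 to 0.15, adjusted p = 0.523, edgeR). Leaving out Nfkb2-/- replicate 3 gave -0.11 and leaving out Nfkb2-/- replicate 2 gave -0.34.

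Nqo1 (ENSMUSG00000003849, chr8:107388225-107403206, minus strand), the NAD(P)H quinone dehydrogenase that is often read as a reporter of Nrf2 activity, was the scarcest of the 10. It was counted 123, 94 and 26 times in WT and 104, 98 and 207 times in Nfkb2-/- libraries, which gave 2.92, 2.89 and 0.895 CPM in WT and 3.07, 3.23 and 3.87 CPM in Nfkb2-/- BMDCs. The genotypes did not overlap, but WT replicates 1 and 2 were close to Nfkb2-/- replicates 1 and 2, and the low value of WT replicate 3 set most of the distance. The log2 fold change was 0.60 (SE 0.44, 95% interval -0.43 to 1.62, adjusted p = 0.530, edgeR). Without WT replicate 3 it was 0.23 (SE 0.24, adjusted p = 0.698).

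**Figure D2:**
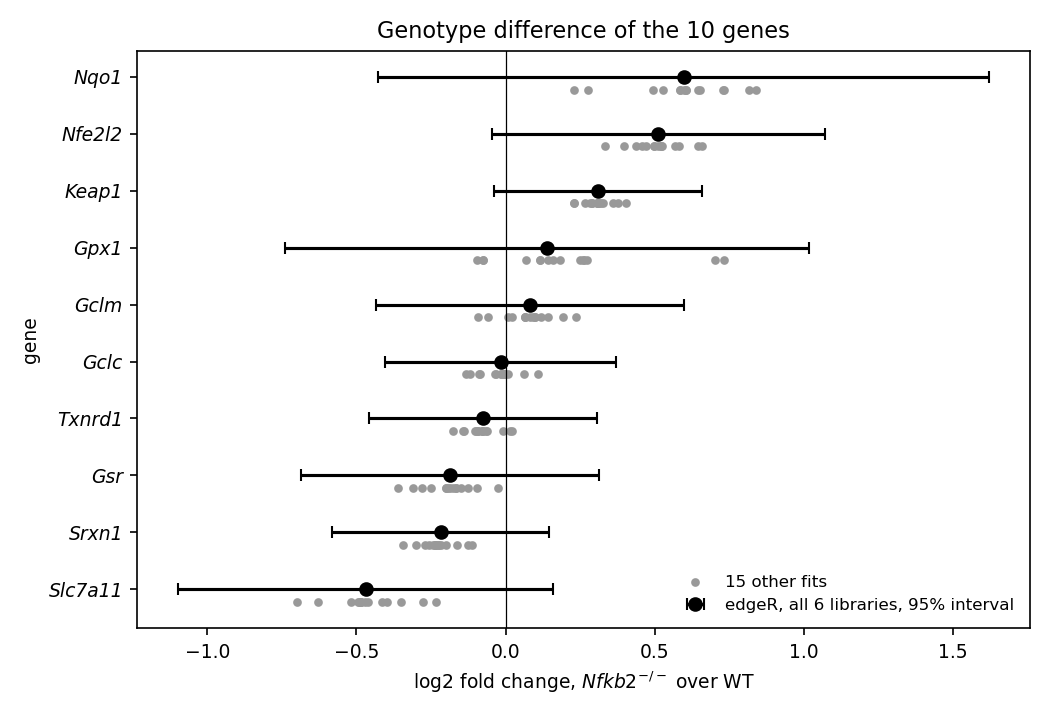
Log2 fold change (horizontal axis, Nfkb2-/- over WT) of the 10 mRNAs (vertical axis), ordered by value; black points and bars are edgeR estimates with 95% intervals from all 6 libraries, and grey points are the estimates of 15 other fits. All 10 intervals include 0, and the grey points of Gclc, Gclm, Gpx1 and Txnrd1 fall on both sides of it.

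Compared per kilobase of exonic length, Nfe2l2 had the highest mean over both genotypes, 72.9 CPM per kilobase over the 6 libraries (range 43.9 to 96.3). Slc7a11 followed at 64.0 (37.5 to 86.2), Gpx1 at 58.9 (38.0 to 92.0) and Gsr at 35.6 (28.0 to 45.9). Ranges of these neighbours overlapped, so that their order is not fixed by these libraries. In WT means Slc7a11 (74.4 ± 15.2 CPM per kilobase) was above Nfe2l2 (60.1 ± 14.3), and in Nfkb2-/- means Nfe2l2 (85.8 ± 17.0) was above Slc7a11 (53.7 ± 15.3). A step without overlap separated Gsr from Txnrd1 at 18.4 (15.4 to 21.4) CPM per kilobase, although on the length of the longest coding transcript Txnrd1 (36.1) and Gsr (36.7) were alike. Srxn1 followed at 14.1 (11.2 to 16.3), Gclm at 12.3 and Gclc at 11.4, each with a range that overlapped that of the gene before it, Txnrd1 included. Keap1 at 4.07 (3.40 to 4.78) and Nqo1 at 1.81 (0.576 to 2.49) CPM per kilobase stood apart from the rest and from each other.

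Across libraries the 10 mRNAs did not vary as 1 group. WT replicate 3 was the lowest library for 5 of them, Nfe2l2, Gclc, Gclm, Gsr and Nqo1, where it was the lowest for 25.0% of all genes tested. It was also the highest for Gpx1. Nfkb2-/- replicate 1 was the lowest for Slc7a11 and Txnrd1, against 21.7% of all genes and 34.5% of the 10646 genes that averaged 5 CPM or more. The heat map sets the 10 genes beside the macrophage markers, which were lowest in that WT library. Without WT replicate 3 none of the 10 was called (1.27% of all genes were), nor without WT replicate 2, where the share over all genes was the highest of the fits that leave out 1 library (5.87%).

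**Figure D3:**
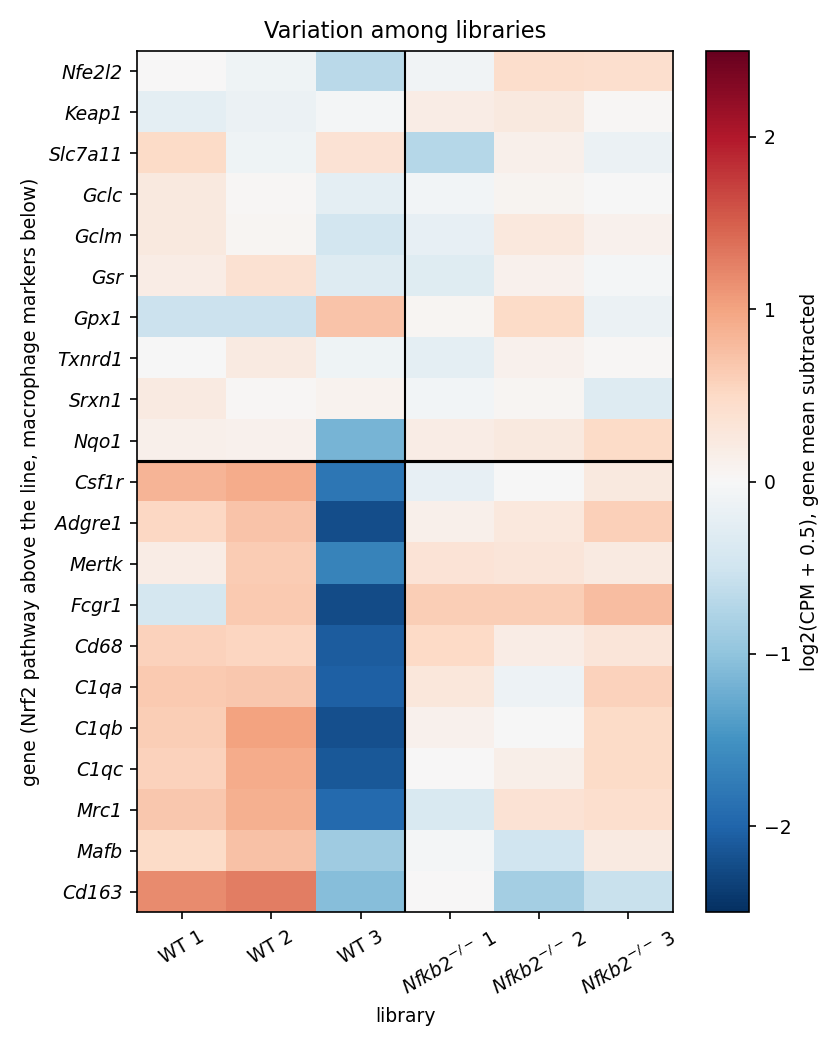
Heat map of the 10 Nrf2 pathway mRNAs (above the horizontal line) and 11 macrophage markers (below it) in the 6 libraries; colour is log2(CPM + 0.5) with the mean of the gene subtracted, red above and blue below it. WT replicate 3 is dark blue for the macrophage markers, and among the Nrf2 genes it is palest for Keap1 and Srxn1, blue for Nfe2l2, Gclm and Nqo1, and red for Gpx1.

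The genes whose profile over the 6 libraries was most like that of Nfe2l2, by root mean square difference of centred log2 CPM among 10645 genes, were Nup35 (0.0734), Ptgir (0.0775) and Aga (0.0826). Nup35 encodes a nucleoporin, Ptgir the prostacyclin receptor and Aga a lysosomal amidase. They were chosen for this likeness, which includes a lowest value in WT replicate 3 (3.06, 22.5 and 6.78 CPM). The nearest to Nqo1 were Tbkbp1 (0.111), Ncln (0.118) and Nfam1 (0.123), again with the lowest value in WT replicate 3 (2.44, 11.2 and 61.6 CPM) by the same choice.

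Around the 10 genes, 121 further genes were arranged in 9 lists by role, and 117 of them were tested. Of these, 4 were called, 2 higher (Prdx6 and Tkt) and 2 lower (Btrc and Gsto1) in Nfkb2-/- BMDCs. At an unadjusted p under 0.05 there were 32, 16 in each direction (9.03% of all genes were higher and 8.04% lower by this measure), and the genotypes were separate in 38, 22 higher and 16 lower (over all genes 24.7%, 12.7% higher and 12.0% lower). The median log2 fold change was 0.08, as over all genes tested. EdgeR's 4 calls stand beside 1.14% of all genes, the 18 of the 117 that DESeq2 called beside 8.65%, and the 5 of limma voom beside 2.23%.

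**Figure D4:**
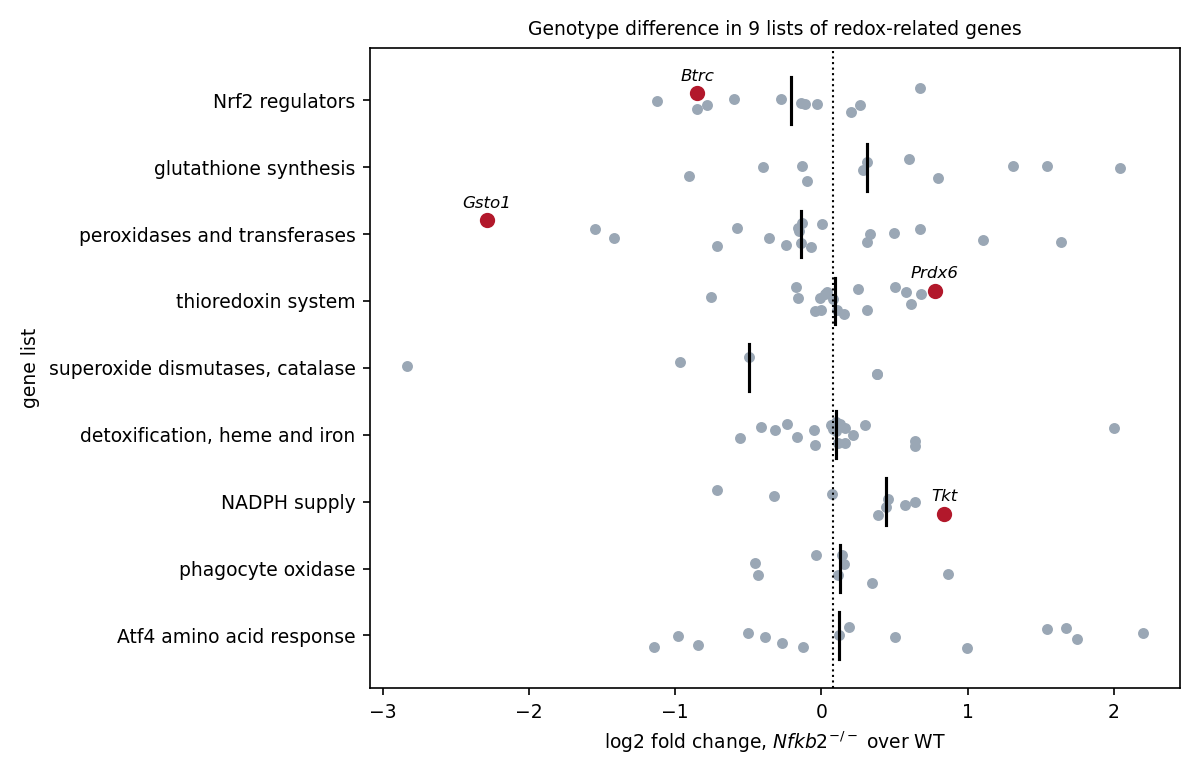
Log2 fold change (horizontal axis, Nfkb2-/- over WT) of the 117 tested genes in 9 lists by role (vertical axis, points spread vertically for legibility); a red point is a called gene, a black bar the median of its list, and the dotted line the median over all genes tested. The 4 called genes lie in different lists, and list medians range from -0.49 for superoxide dismutases and catalase to 0.44 for NADPH supply.

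Among the regulators of Nrf2, 12 genes were tested and 1 was called (1.14% of all genes were). Btrc (chr19:45363734-45530013) encodes beta-TrCP, a ubiquitin ligase adaptor that can direct Nrf2 to degradation apart from Keap1 and that also acts in Wnt and NF-kB signaling. It fell from 35.9, 33.3 and 34.3 CPM in WT to 19.1, 18.5 and 19.9 CPM in Nfkb2-/- BMDCs, a log2 fold change of -0.85 (SE 0.13, adjusted p = 0.0420, edgeR). The genotypes were well apart and each was tight. Of the regulators that missed the threshold, the most abundant was Sqstm1, the p62 autophagy receptor that competes for Keap1, at 395 ± 106 CPM in WT and 261 ± 14.9 CPM in Nfkb2-/- (adjusted p = 0.222, edgeR). Cul3, the scaffold of the Keap1 ligase, and Gsk3b, a kinase that marks Nrf2 for beta-TrCP, had log2 fold changes of -0.11 and -0.03. Maff, a small Maf partner, gave 0.68 (adjusted p = 0.137). Nfe2l3, a relative of Nrf2, gave -1.13 (adjusted p = 0.109, edgeR) and Bach2, a repressor that competes at the same elements in lymphoid cells, -0.85 (adjusted p = 0.0974), both with separate genotypes. Both are named after their values were seen. Of the 12 estimates 9 were lower, where 9670 of all 21849 genes were, and their median was -0.21. An unadjusted p under 0.05 was found for 1 higher (9.03% of all genes) and 5 lower (8.04%), the genotypes were separate in 6 (24.7%), and DESeq2 called 4 (8.65%).

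Of the 11 other genes of glutathione synthesis and turnover, none was called, and 1 had an unadjusted p under 0.05. That was Ggct, an enzyme of glutathione breakdown, at 2.63 ± 0.778 CPM in WT and 4.58 ± 0.526 CPM in Nfkb2-/- BMDCs (log2 fold change 0.80, adjusted p = 0.204, edgeR). Estimates were higher for 7 of the 11 and lower for 4. Log2 fold changes ran from -0.90 to 2.05 with a median of 0.31. The genotypes were separate in 3, all higher (12.7% of all genes). Of the lower genes Chac2 had the smallest p. Anpep, the most abundant, had a log2 fold change of 0.31 and Slc3a2 one of -0.10. Among 19 of 23 glutathione peroxidases and transferases that passed the filter, Gsto1 was called (1.14% of all genes were). Gsto1 (chr19:47854970-47864790), an omega-class glutathione transferase with thioltransferase activity, fell from 199, 158 and 336 CPM to 39.9, 50.3 and 51.3 CPM. It was 4.89-fold lower in Nfkb2-/- BMDCs (log2 fold change -2.29, SE 0.30, adjusted p = 0.0327, edgeR), the largest change among the called genes of these lists. Gpx4, the peroxidase that reduces lipid hydroperoxides, stood at 66.8 ± 16.8 CPM in WT and 40.6 ± 10.4 CPM in Nfkb2-/- BMDCs and was not called (adjusted p = 0.223). Mgst3 had the smallest p of the higher genes, with a log2 fold change of 0.67 (adjusted p = 0.176, edgeR) and separate genotypes. Of the 19 estimates 7 were higher and 12 lower. An unadjusted p under 0.05 was found for 1 higher (9.03% of all genes) and 3 lower (8.04%), and the genotypes were separate in 4 (24.7%). DESeq2 called 2 (8.65%), Gsto1 and Hpgds (log2 fold change -1.55 in edgeR), the latter named after its values were seen. Gpx8, Gsta2, Gsta4 and Gstm3 did not pass the filter on low counts.

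In the thioredoxin system, 1 of 18 genes was called (1.14% of all genes were). Prdx6 (chr1:161240112-161251219), a peroxiredoxin that uses glutathione as its reductant, rose from 45.7, 47.1 and 46.7 CPM to 83.9, 76.1 and 78.7 CPM (log2 fold change 0.77, SE 0.13, adjusted p = 0.0444, edgeR). The WT libraries differed by little, WT replicate 3 included. Prdx1, the most abundant of the list and a textbook Nrf2 target, was at 444, 318 and 159 CPM in WT and at 336, 581 and 561 CPM in Nfkb2-/- BMDCs. Its genotypes overlapped (log2 fold change 0.68, SE 0.39, adjusted p = 0.424), and like Nfe2l2 it was lowest in WT replicate 3. Txnip, an inhibitor of thioredoxin, had a log2 fold change of 0.58 (adjusted p = 0.207) and Sesn3, a sestrin, one of -0.75 (adjusted p = 0.186). An unadjusted p under 0.05 in edgeR was found for 3 higher (9.03% of all genes) and 1 lower (8.04%). The genotypes were separate in 5 (24.7%), and DESeq2 called 1 (8.65%).

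Among the 9 genes of NADPH supply, Tkt was called (1.14% of all genes were). Tkt (chr14:30548359-30574720), the transketolase of the non-oxidative pentose phosphate pathway, rose from 165, 179 and 144 CPM to 286, 289.8 and 298 CPM (log2 fold change 0.84, SE 0.14, adjusted p = 0.0491, edgeR). Other genes of the pathway that missed the threshold were Taldo1, at 0.57 (adjusted p = 0.152), and G6pdx, at 0.44 (adjusted p = 0.225), both named after their values were seen, and Pgd, at 0.39. Idh1, a cytosolic source of NADPH, gave -0.72 (adjusted p = 0.195). Of the 9 estimates 7 were higher, where 12179 of all 21849 genes were. The unadjusted p was under 0.05 for 4 higher (9.03% of all genes) and 1 lower (8.04%), and DESeq2 called 3 (8.65%).

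Superoxide dismutases and catalase comprised 5 genes, none of them called. Sod3, the extracellular dismutase, was at 31.1, 7.69 and 28.0 CPM in WT and at 4.19, 3.00 and 2.21 CPM in Nfkb2-/- BMDCs (log2 fold change -2.83, SE 0.54, adjusted p = 0.0598, edgeR). WT replicate 2 lay nearest to the Nfkb2-/- libraries, and the genotypes did not overlap. Cat, which encodes catalase, was read at 532, 460.0 and 846 CPM in WT and at 432, 258 and 248 CPM in Nfkb2-/- BMDCs (log2 fold change -0.97, adjusted p = 0.180). Sod1 gave -0.49 and Sod2, the mitochondrial enzyme, 0.38. Of the 5 genes 3 had an unadjusted p under 0.05 and separate genotypes, all of them lower (8.04% and 12.0% of all genes), and DESeq2 called Sod3 and Cat, both lower (8.65% of all genes in either direction).

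None of the 20 detoxification, heme and iron genes was called, and 0 had an unadjusted p under 0.05. Fth1, the ferritin heavy chain and the most abundant, had a log2 fold change of -0.17, Ftl1 one of -0.42, Nqo2 one of 0.64 and Pir one of -0.56. WT replicate 3 was the lowest library for 9 of the 20, among them Hmox1, the heme oxygenase often measured as an Nrf2 target, which was named after its values were seen. Hmox1 was at 83.0, 62.1 and 9.40 CPM in WT and at 40.7, 49.4 and 40.9 CPM in Nfkb2-/- BMDCs (adjusted p = 0.882).

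Sources of oxidants were read beside their removal. Of 8 subunits of the phagocyte NADPH oxidase none was called, and Ncf1, the p47 subunit, had the smallest p (log2 fold change -0.45, adjusted p = 0.254, edgeR). Cybb, its catalytic subunit, was lowest in WT replicate 3 as the macrophage markers were, at 625, 535 and 54.3 CPM in WT and at 226, 348 and 324 CPM in Nfkb2-/- BMDCs. Slc7a11 is also a target of Atf4, the factor of the amino acid response, so 15 genes of that response were read. None was called by edgeR, 8 had an unadjusted p under 0.05 (17.1% of all genes had), 6 of them higher (9.03% of all genes) and 2 lower (8.04%), and DESeq2 called 6 (8.65% of all genes). Slc7a5, the large neutral amino acid transporter, was at 7.97, 22.4 and 8.43 CPM in WT and at 51.9, 55.0 and 71.1 CPM in Nfkb2-/- BMDCs (log2 fold change 2.20, SE 0.42, adjusted p = 0.0611). Atf4 itself gave 0.19, Ppp1r15a -1.14 and Mthfd2 -0.98. The genotypes were separate in 8 of the 15, 6 higher and 2 lower (12.7% and 12.0% of all genes). The median log2 fold change of the 15 was 0.12.

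The 4 calls were near the threshold and were lost in some fits with 1 library left out, whereas the log2 fold changes of those fits stayed between 0.73 and 0.79 for Prdx6, 0.76 and 0.91 for Tkt, -0.87 and -0.82 for Btrc, and -2.50 and -1.92 for Gsto1. In fits without WT replicate 1 or without any 1 of the Nfkb2-/- replicates, edgeR called no gene in the genome (unadjusted p under 0.05 in 2325 to 4088 genes), and the adjusted p in those fits was 0.0891 to 0.240 for Btrc, 0.0898 to 0.186 for Gsto1, 0.0880 to 0.240 for Prdx6 and 0.0898 to 0.271 for Tkt. Without WT replicate 3 the calls of Prdx6 (adjusted p = 0.0567) and Tkt (adjusted p = 0.0623) were lost as well. Scaling and filtering ended calls too. Total counts in place of TMM left Btrc (adjusted p = 0.0759), Prdx6 (0.0565) and Tkt (0.0561) uncalled in edgeR, having no filter on low counts left Prdx6 (0.226) and Tkt (0.241) uncalled, and DESeq2's size factors in edgeR left Tkt uncalled (0.0551). With the replicate number as a block none of the 4 was called, at log2 fold changes of 0.77 for Prdx6, 0.85 for Tkt, -0.85 for Btrc and -2.23 for Gsto1. DESeq2 and limma voom called all 4, and all 4 directions were the same in all 15 other fits. Btrc and Gsto1 lie 0.774 and 1.54 Mb from Nfkb2 (chr19:46304320-46312385). The deletion and sequence linked to it on this chromosome cannot be told apart as the source of these differences.

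**Figure D5:**
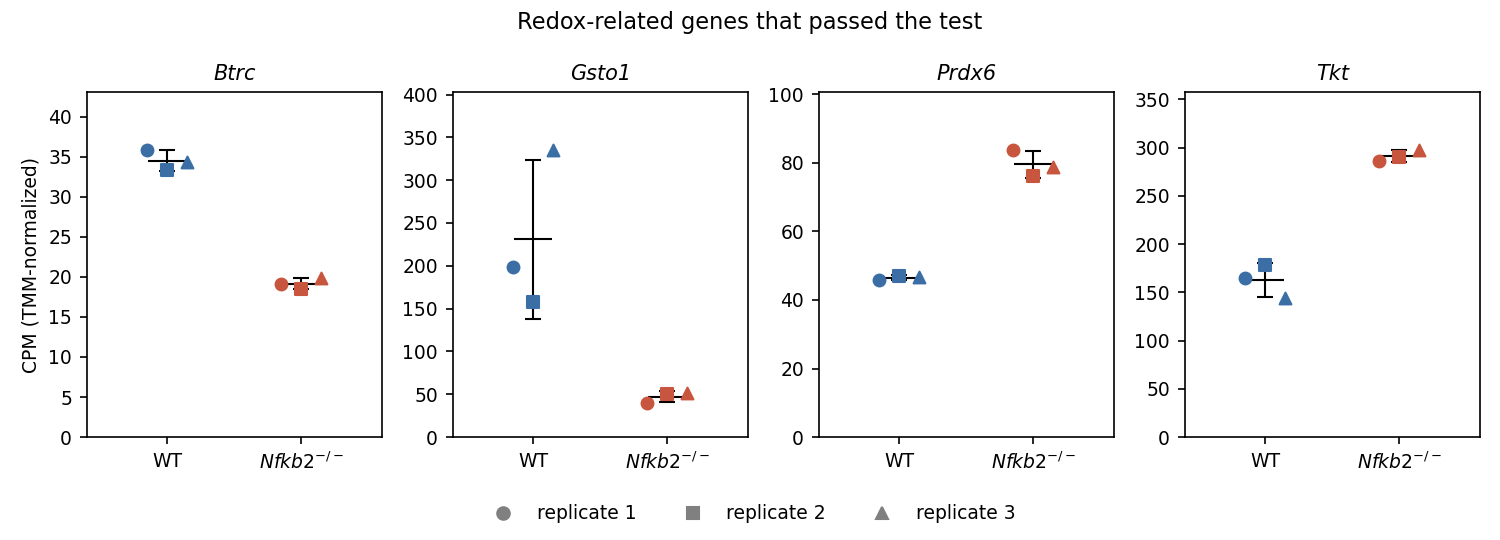
Level in CPM (vertical axes start at 0) of the 4 called genes of the redox lists in the 3 WT and 3 Nfkb2-/- libraries; points are libraries with a symbol per replicate, and bars are mean ± SD. Btrc and Gsto1 are lower and Prdx6 and Tkt higher in each Nfkb2-/- library than in each WT library.

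Some reads could not be given to 1 gene with certainty. How reads on overlapping genes were counted, and whether strand was used, was not given in the sources used here, and strand would not separate genes on the same strand. Annotated genes that overlap members had counts of 7.48% of the member's own for Slc7a11 (Gm37498, same strand), 6.34% for Txnrd1 (Eid3, same strand), 6.03% for Gclm (Gm17494, opposite strand) and 5.08% for Keap1 (Gm16754, antisense).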

How the data were processed

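Count tables of 6 libraries (3 WT, 3 Nfkb2-/-) were analysed. The authors deposited whole-number counts of reads per Ensembl gene without normalization. The submitters' processing notes name HISAT2 and GRCm38 (mm10). The version, counting tool, annotation and use of strand are not given in the sources used here. A joined table with the same counts was not used.

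IDs with a name in GENCODE M21 (52073 of 56748) and at least 50 counts over the 6 libraries were kept. The 4675 unnamed IDs, with 1.01% to 1.75% of a library's counts, stayed out of library sizes and tests. Counts were TMM-normalized and the genotypes compared with glmQLFit and glmQLFTest of edgeR 4.0.16 in R 4.3.3 without covariates. Genes with a Benjamini-Hochberg adjusted p under 0.05 over all 21849 genes and a fold change over 1.2 were called. The SE is the log2 fold change divided by the square root of F. DESeq2 1.42.0, limma 3.58.1 (voom), other scalings, filters and thresholds, a replicate block and each library left out were alternatives. The tests were tested on simulated counts.

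The members, gene lists and tests were chosen with earlier results of these data known. Named are the 10 members, Nfkb2, and of each list its called genes, its 3 most abundant genes and that with the smallest p-value in each direction. Of each marker list the most abundant gene and defining markers are named, and for Nfe2l2 and Nqo1 the 3 genes of at least 5 CPM with the most similar profile. Not every gene the rule allows is described.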

Additional observations from a re-analysis of the deposited data

How the results depend on the processing

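No alternative called any of the 10 Nrf2 genes, and Nfe2l2, Keap1, Nqo1, Slc7a11, Gsr and Srxn1 kept their direction in all 15 other fits. Small log2 fold changes changed sign when 1 library was left out. Gclm ranged from -0.091 (without WT replicate 3) to 0.24 and was also negative without Nfkb2-/- replicate 2 (-0.059), Txnrd1 ranged from -0.18 to 0.023 (without WT replicate 2) and was positive without Nfkb2-/- replicate 1 (0.015), Gclc ranged from -0.13 to 0.11 (without WT replicate 1) and was positive without Nfkb2-/- replicate 1 (0.0076), and Gpx1 ranged from -0.097 (without Nfkb2-/- replicate 2) to 0.70 (without WT replicate 3) and was negative without WT replicate 1 (-0.076) and WT replicate 2 (-0.075). With total counts in place of TMM, Gclc was 0.061. Total counts moved the median over all genes from 0.08 to 0.17 and having no filter moved it to 0.60. Of 248 genes called in the genome, and 4 among the redox lists, DESeq2 gave 1890 and 18, no filter beyond 1 count 1625 and 14 (without Prdx6 and Tkt), an adjusted p under 0.1 808 and 9, and leaving out both WT replicate 3 and Nfkb2-/- replicate 1 908 and 10. The genome-wide count was 488 with limma voom, 397 with filterByExpr and 459 with at least 10 counts in every library, and in the redox lists total counts left 1 call (Gsto1) and DESeq2's size factors in edgeR left 3 (without Tkt). Leave-one-out counts ranged from 0 to 1248 in the genome (1248 without WT replicate 2) and from 0 to 15 in the lists. With the replicate number as a block the counts were 0 and 0, with 3331 genes at an unadjusted p under 0.05. The labels do not say whether the numbers pair the samples. After subtraction of the genotype means, same-numbered libraries correlated at 0.138, 0.0597 and 0.0197 for replicates 1 to 3. The highest correlations with another number were -0.0777, 0.0779 and -0.0048, so that only replicate 2 correlated better with another number. Correlations this small cannot decide whether the samples were paired. The cause of the changes between fits was not tested. Nqo1 was the scarcest of the 10, with 26 counts in WT replicate 3.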
